A study of Saccharomyces cerevisiae with 18 samples.

Results

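The small (40S) ribosomal subunit protein genes of budding yeast, *Saccharomyces cerevisiae*, were examined in RNA-seq libraries of ten1-31 and wild-type (WT) cultures. The set was defined by systematic name as RPS0A to RPS31 together with ASC1, 57 genes in all that encode 33 proteins. Of these, 55 had a row among the 5143 rows of the count table, and all 55 passed the filter on low counts. RPS8A and RPS11A were without a row and are not analysed here.

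TEN1 encodes one member of the Cdc13-Stn1-Ten1 complex, which binds and protects telomeres, and ten1-31 is a temperature-sensitive allele. The ten1-31 group held 3 libraries and the WT group 3. Cultures of both genotypes were saturated at 25 °C, diluted, and kept at 34 °C for nearly 5 h, so the WT cells had gone through the same change of temperature. Total RNA depleted of ribosomal RNA was sequenced with a strand-specific kit. No strain background is given in the sources used here, nor whether the 3 replicates of a genotype were separate cultures, so p-values measure the spread between these libraries, which may be technical. The 12 ChIP-seq and input samples of the series were not analysed here.

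The small subunit reads the mRNA. Its head and body enclose the decoding site, where the codon meets the transfer RNA, and its proteins line the channel by which the mRNA enters and leaves. In yeast most of these proteins are encoded by a pair of nearly identical genes, named A and B, left by an ancient duplication of the genome. Ribosomal protein genes are among the most highly transcribed genes of growing yeast and are known to be controlled together, through the factors Rap1, Fhl1, Ifh1, Sfp1 and Hmo1 and the TORC1 and protein kinase A pathways. They are known to fall, and general stress genes to rise, in the common response of yeast to stress.

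Library totals ranged from 10469608 to 14442999 counts, and no member had fewer than 1508 counts in any library, so counting error was small for every member. The TEN1 row itself was at 30.8, 29.6 and 29.8 CPM (the count as a share of the TMM-scaled library size) in the ten1-31 libraries, against 7.08, 9.37 and 10.1 CPM in the WT libraries. TEN1 was higher in ten1-31 by 1.77 ± 0.13 on the log2 scale (SE, n = 3 each; adjusted p = 7.15e-05, edgeR). All 3 ten1-31 libraries lay above all 3 WT libraries. The level of a gene's mRNA does not show which allele it carries, so this row separates the libraries by label without checking the mutation.

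Rows of 3 chromosomes stood apart from the rest of the genome in ten1-31 libraries. The median deviation of log2 CPM from the 6-library mean, over the 236 rows of chromosome VIII, was 0.44, 0.27 and -0.18 in ten1-31 replicates 1, 2 and 3, against -0.15, -0.18 and -0.19 in the WT libraries. Over the 174 rows of chromosome IX it was 0.14, 0.10 and 0.37 in ten1-31, against -0.21, -0.20 and -0.19 in WT. Over the 290 rows of chromosome XI it was 0.18, 0.22 and 0.25 in ten1-31, against -0.25, -0.20 and -0.21 in WT. The ten1-31 libraries thus differed among themselves on chromosomes VIII and IX. Chromosomes IX and XI were raised in all 3, and chromosome VIII in replicates 1 and 2 only. On these chromosomes lie 6 members, RPS4B, RPS20 and RPS27B on VIII, RPS24B on IX, and RPS21A and RPS27A on XI. Their values are given below both as measured and after each library's rows were centred on the median of their own chromosome (chromosome-centred).

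**Figure D1:**
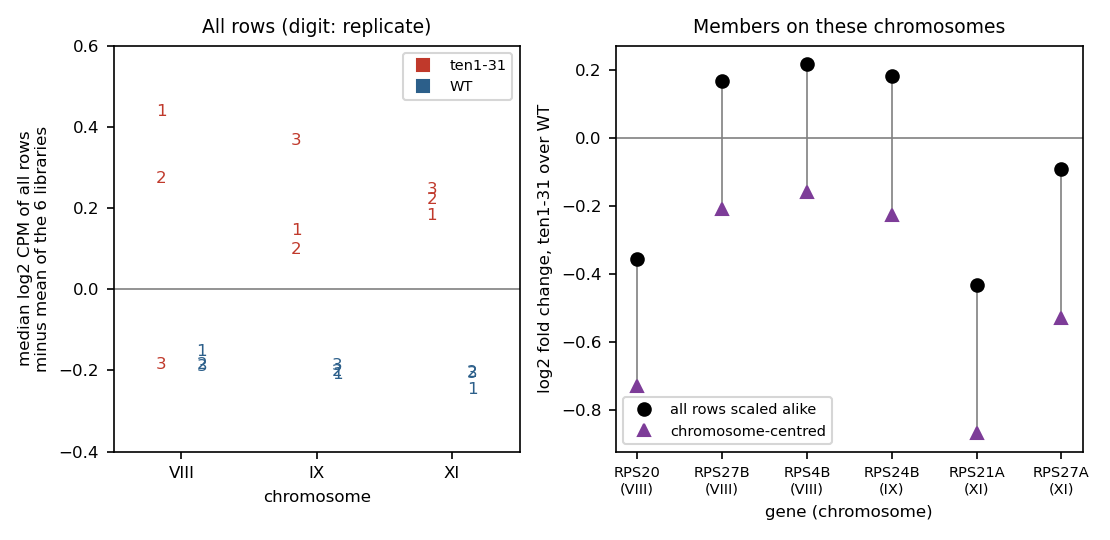
Left, the median deviation of log2 CPM from the 6-library mean over all rows of chromosomes VIII, IX and XI (vertical axis), one digit per replicate, ten1-31 left of WT. Right, the log2 fold change of the 6 members on these chromosomes, with all rows scaled alike (circles) and chromosome-centred (triangles). Each of the 6 members lay lower after centring, and ten1-31 replicate 3 lay at -0.18 on chromosome VIII, beside the WT libraries.

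Transcripts of the small subunit were lower in ten1-31 across most of the set. Of the 55 members, 38 fell (69.1%), where 26.2% of all 5133 rows tested fell, and 1 rose, RPS14B (1.82%), where 24.3% of all rows rose (edgeR quasi-likelihood test, Benjamini-Hochberg adjusted p under 0.05 over all rows). The remaining 16 did not pass the test. The median log2 fold change over the 55 members was -0.36, against -0.00377 over all rows, and single members ran from -0.98 to 0.44. In 40 members every ten1-31 library lay below every WT library, a pattern that 31.6% of all rows showed. In 2 members, RPS14B and RPS28B, every ten1-31 library lay above, as in 29.0% of all rows. These are bulk measurements relative to all counted RNA, so fewer cells of a kind and less RNA per cell cannot be told apart. A fall of all RNA in a cell would not be seen.

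The members together took 4.69, 4.51 and 4.62% of all counts in the ten1-31 libraries, against 6.03, 5.48 and 6.22% in the WT libraries. The genotypes did not overlap, and WT replicate 2 was the lowest of its group. The means were 4.61 ± 0.0919% in ten1-31 and 5.91 ± 0.384% in WT (SD, n = 3 each), a difference of -1.30 percentage points (two-sided exact permutation test, p = 0.1; no smaller p can arise with 3 libraries a side). The 80 large subunit genes with a row took 6.15 ± 0.150% of counts in ten1-31 and 7.77 ± 0.441% in WT (SD, n = 3 each; exact permutation p = 0.1).

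**Figure D2:**
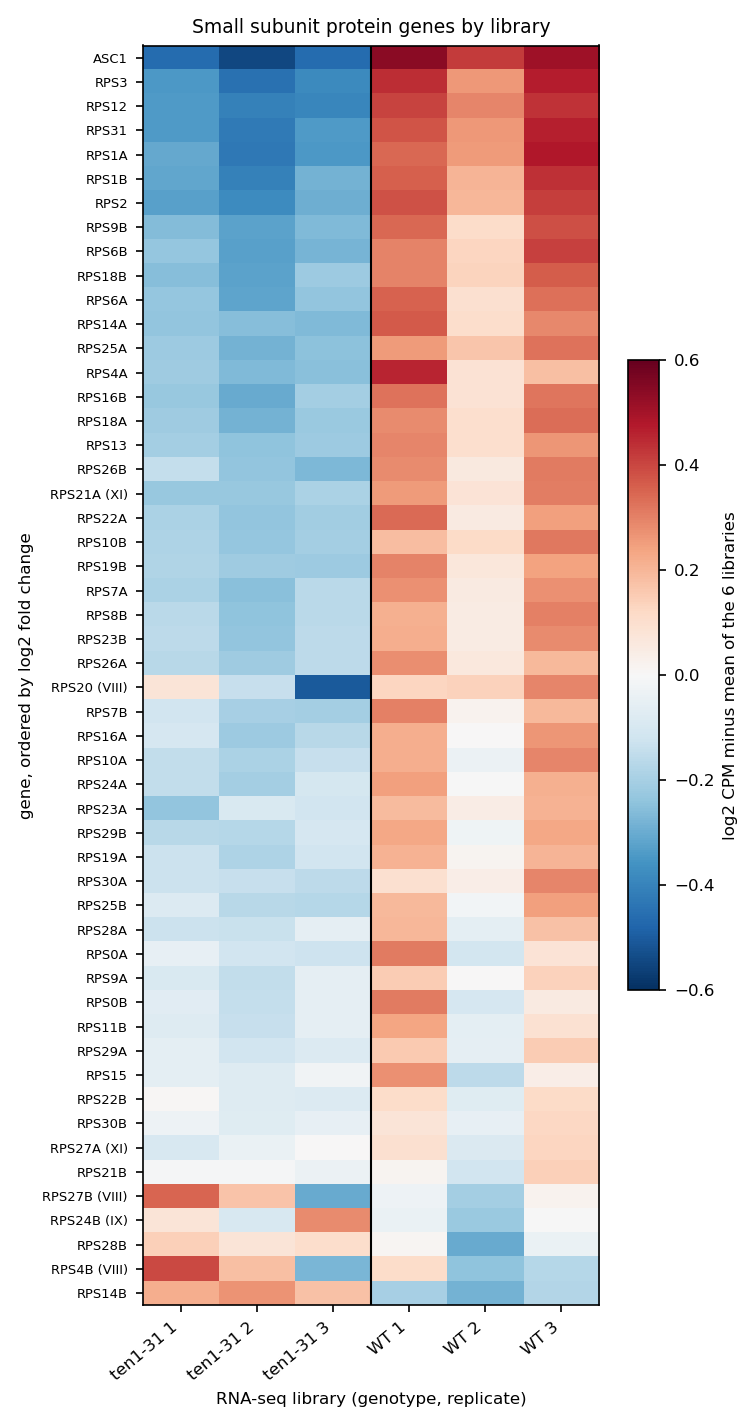
Log2 CPM of 52 members (rows, ordered by log2 fold change) in each library (columns, ten1-31 left of the black line, WT right), as the deviation from the mean of the 6 libraries; blue is lower and red higher, and chromosomes VIII, IX and XI are marked. Most members are blue in all 3 ten1-31 libraries and red in WT replicates 1 and 3, with WT replicate 2 paler, and RPS14B at the bottom shows the opposite order.

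The proteins encoded by only 1 gene included the largest falls. Of these 9 genes, 7 fell, with a median of -0.67. Of the 46 genes of duplicated proteins, 31 fell and 1 rose, with a median of -0.33 (26.2% of all rows fell and 24.3% rose). ASC1 (YMR116C, chrXIII:499456-500688, build R64), the yeast counterpart of the signalling scaffold RACK1 on the subunit's head, had 1439.8, 1359 and 1442 CPM in ten1-31 libraries, against 2888, 2649 and 2818 CPM in WT libraries. The libraries of each genotype lay close together, and the genotypes did not overlap. ASC1 fell by 0.98 ± 0.07 on the log2 scale (SE; adjusted p = 7.19e-05, edgeR), to 50.8% of its WT mean, the lowest share of any member.

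RPS3 (YNL178W, chrXIV:302680-303402), whose protein guards the mRNA entry of the head, had 1297, 1208 and 1263 CPM in ten1-31, against 2245, 1976 and 2288 CPM in WT. RPS2 (YGL123W, chrVII:277617-278381), which encodes its neighbour at the entry, had 2165, 2088 and 2214 CPM in ten1-31, against 3537, 3114 and 3614 CPM in WT. Neither gene overlapped between genotypes, and in both ten1-31 replicate 2 and WT replicate 2 were the lowest of their group. RPS3 fell by 0.79 ± 0.08 (SE; adjusted p = 0.000299, edgeR) and RPS2 fell by 0.67 ± 0.08 (SE; adjusted p = 0.000563, edgeR) on the log2 scale.

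RPS12 (YOR369C, chrXV:1028194-1028625), for a protein of the head's beak, had 1305, 1249 and 1259.7 CPM in ten1-31, against 2190.3, 2026 and 2228 CPM in WT. RPS31 (YLR167W, chrXII:498947-499405), whose protein is made as a fusion to ubiquitin, had 2138, 2013 and 2135 CPM in ten1-31, against 3514, 3239 and 3738 CPM in WT. Both were lower in every ten1-31 library than in any WT library. RPS12 fell by 0.76 ± 0.07 and RPS31 by 0.74 ± 0.08 on the log2 scale (SE; adjusted p = 0.000201 and 0.000352 in that order, edgeR).

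RPS13 (YDR064W, chrIV:579458-580452), for a protein of the body, had 944, 919 and 934 CPM in ten1-31, against 1332, 1163 and 1304 CPM in WT, and fell by 0.44 ± 0.08 on the log2 scale (SE; adjusted p = 0.00259, edgeR). No ten1-31 library of RPS13 overlapped a WT library.

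RPS15 and RPS20, also single genes, did not pass the test. RPS15 (YOL040C, chrXV:253149-253577), for a protein of the head beside the decoding site, had 1319, 1303 and 1355 CPM in ten1-31, against 1663, 1233 and 1414 CPM in WT. The genotypes overlapped, since WT replicate 2 lay below all ten1-31 libraries. Its log2 fold change was -0.12, with a 95% interval from -0.37 to 0.14 (adjusted p = 0.411, edgeR).

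RPS20 (YHL015W, chrVIII:75412-75777), for another head protein, had 2181, 1878 and 1453 CPM in ten1-31 replicates 1, 2 and 3, against 2257, 2272 and 2529 CPM in WT. The order of the ten1-31 libraries was that of the chromosome VIII medians, highest in replicate 1 and lowest in replicate 3. The log2 fold change was -0.36 ± 0.14 (SE; adjusted p = 0.0688, edgeR) as measured and -0.73 chromosome-centred (adjusted p = 0.000253, edgeR).

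Among the duplicated genes, both copies of RPS1 were next in size of change. Their proteins sit on the platform beside the mRNA exit. RPS1A (YLR441C, chrXII:1018141-1018908) had 1229, 1129 and 1197 CPM in ten1-31, against 1931, 1814 and 2118 CPM in WT. RPS1B (YML063W, chrXIII:146482-147249) had 1755, 1647 and 1787 CPM in ten1-31, against 2789.6, 2506 and 2952 CPM in WT. Neither copy overlapped between genotypes, and RPS1B was the higher copy in every library; both genes span 768 bases. RPS1A fell by 0.72 ± 0.08 and RPS1B by 0.67 ± 0.09 on the log2 scale (SE; adjusted p = 0.000445 and 0.000637 in that order, edgeR).

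RPS9B (YBR189W, chrII:604508-605508), for a protein of the body at the mRNA entry, had 1102, 1057 and 1097 CPM in ten1-31, against 1674, 1423 and 1725 CPM in WT. It fell by 0.57 ± 0.09 on the log2 scale (SE; adjusted p = 0.00159, edgeR), with no overlap. In all, 7 members were at least 1.5-fold lower in ten1-31, namely ASC1, RPS3, RPS12, RPS31, RPS1A, RPS1B and RPS2.

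Members for head and for body proteins were both mostly lower; the difference between them was not tested. Of 23 members for head proteins 17 fell, and the median change was -0.41 on the log2 scale. Of 32 for body proteins 21 fell and 1 rose, with a median of -0.35 (26.2% of all rows fell and 24.3% rose). Level and change went together across members: the 10 members with the most counts had a median change of -0.70 on the log2 scale, and the 10 with the fewest -0.14. Spearman's rho between log2 fold change and mean CPM was -0.59 across the 55 members and -0.09 across all rows, as a description of points that share the same 6 libraries.

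The 6 members on chromosomes VIII, IX and XI differed from the others as measured. Of these 6, 1 fell (RPS21A) and the median log2 fold change was 0.04. Of the 49 members elsewhere, 37 fell and 1 rose, with a median of -0.38 (26.2% of all rows fell and 24.3% rose). After chromosome-centring the median of the 6 was -0.38. RPS27A, at -0.09 as measured (adjusted p = 0.358, edgeR), stood at -0.53 chromosome-centred (adjusted p = 0.00109, edgeR). RPS24B stood at 0.18 as measured (adjusted p = 0.21, edgeR) and at -0.23 chromosome-centred (adjusted p = 0.0482, edgeR). RPS27B and RPS4B were not called under either scaling: RPS27B stood at 0.17 as measured and at -0.21 chromosome-centred, and RPS4B stood at 0.22 and at -0.16. Over all 55 members the chromosome-centred fit called 36 lower, 33 of them shared with the 38. The 5 calls it lost were RPS9A, RPS10A, RPS19A, RPS24A and RPS29B, none of them on chromosome VIII, IX or XI. Centring was applied to the rows of every chromosome, so members elsewhere shifted too. The 3 calls it gained were RPS20, RPS24B and RPS27A, on chromosomes VIII, IX and XI in that order. How many of all rows that fit called is not given here.

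The libraries of a genotype differed in an ordered way. WT replicate 2 was the lowest WT library for 54 of 55 members. The median deviation of the members from their 6-library mean was -0.16, -0.21 and -0.17 log2 units in ten1-31 replicates 1, 2 and 3, against 0.26, 0.05 and 0.25 in WT. General stress genes ran the other way, with 0.42, 0.45 and 0.43 in ten1-31, against -0.84, 0.05 and -0.34 in WT, and WT replicate 2 was the highest WT library of this list. The part of these stress genes in the result was not tested. Without WT replicate 2, 44 members were called lower and the median was -0.42. The share of all rows called in that fit is not given here, so the rise to 44 is not read as a trait of the members. The coefficient of variation of CPM within a genotype had a median over members of 3.17% in ten1-31 and 8.57% in WT.

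**Figure D3:**
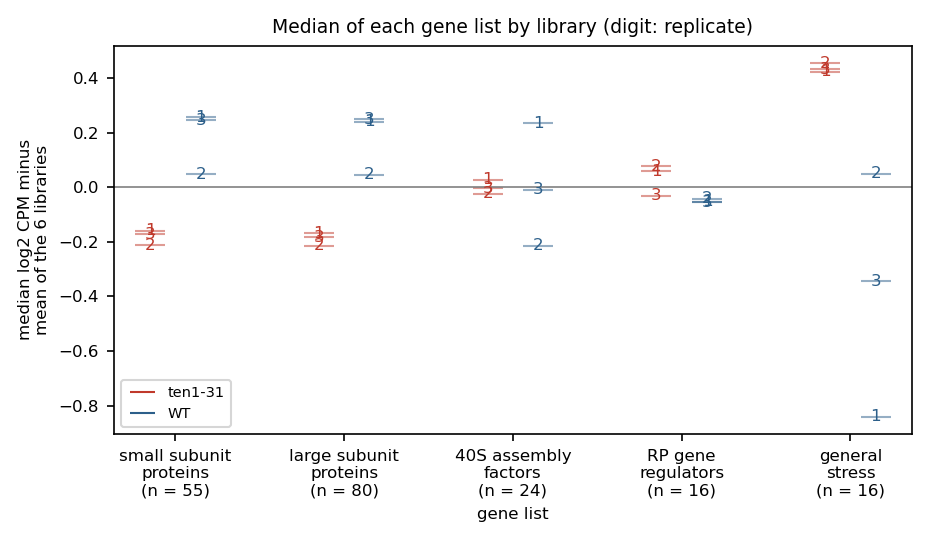
Median deviation of log2 CPM from the 6-library mean (vertical axis) over 5 gene lists (horizontal axis, with the number of genes with a row), one mark and replicate digit per library, ten1-31 left of WT. Small and large subunit genes lie below 0 in all ten1-31 libraries and above 0 in all WT libraries, with WT replicate 2 the lowest WT mark, and it is the highest WT mark among the general stress genes.

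The A and B copies of a protein did not always change alike. Both copies had a row for 22 proteins. In 11 pairs both copies fell, in 7 one copy fell and the other did not pass the test, in 3 neither passed, and in 1, RPS14, the A copy fell and the B copy rose. The difference between copies was tested directly on the log2 ratio of A to B counts (limma, over all 57 pairs of rows named A and B, adjusted p under 0.05). The ratio differed between genotypes in 13 of the 22 small subunit pairs (59.1%), against 71.9% of all 57 pairs and 80.0% of the 35 other pairs. Apart from COX5, those 35 are pairs of large subunit genes, so these shares are no background for gene pairs in general. The A copy's share was lower in ten1-31 in 9 of the 13 and higher in 4. The coding sequences of 2 copies are nearly identical, and how reads that match both were counted is not given in the sources used here, so the level of each copy is uncertain and a shared assignment of reads would shrink a difference.

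**Figure D4:**
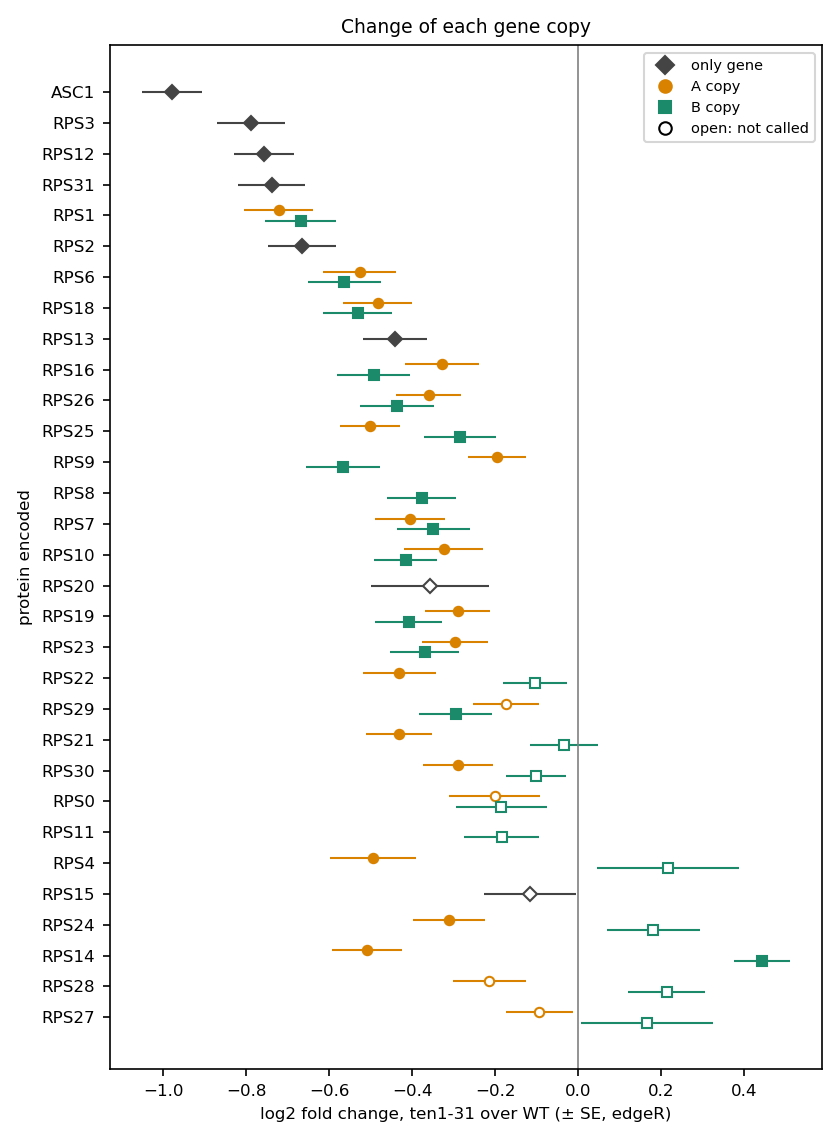
Log2 fold change of ten1-31 over WT (horizontal axis, edgeR, bars ± SE) for 52 members, grouped by the protein encoded and ordered by the mean over its copies; diamonds are single genes, circles A copies and squares B copies, with open symbols for genes not called. The copies of RPS1, RPS6 and RPS18 lie within 0.1 of each other, whereas RPS14A lies at -0.51 and RPS14B at 0.44.

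Among the 22 small subunit pairs, RPS14 had the largest difference between copies. Of all 57 pairs, RPL7 of the large subunit changed more, with a ratio change of -1.19 ± 0.09 (SE, adjusted p = 0.00013, limma). There too the A copy fell (-0.58) and the B copy rose (0.61). Rps14 sits on the platform of the subunit, and in yeast it is known to bind the RPS14B transcript and hold that copy's expression down. RPS14A (YCR031C, chrIII:177500-178220) had 966, 956 and 949.6 CPM in ten1-31, against 1472, 1225 and 1392 CPM in WT. RPS14B (YJL191W, chrX:73787-74611) had 247, 256 and 239.6 CPM in ten1-31, against 185, 174 and 188 CPM in WT. Neither copy overlapped between genotypes, and the copies moved in opposite directions. RPS14A fell by 0.51 ± 0.09 (adjusted p = 0.00203, edgeR) and RPS14B rose by 0.44 ± 0.07 on the log2 scale (SE; adjusted p = 0.00137, edgeR). The A copy's share of the pair's counts was 79.6, 78.9 and 79.9% in ten1-31, against 88.8, 87.6 and 88.1% in WT. The log2 ratio of A to B was lower in ten1-31 by 0.95 ± 0.06 (SE; adjusted p = 4.63e-05, limma), and -0.97 chromosome-centred.

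RPS28 also had a lower A share in ten1-31, by less than RPS14. Rps28 lies at the mRNA exit, and in yeast the RPS28B mRNA is known to be a target of decay that Rps28 itself promotes. RPS28A (YOR167C) had 559, 557 and 588 CPM in ten1-31, against 701, 586 and 689 CPM in WT, and RPS28B (YLR264W) had 345, 329.7 and 336 CPM in ten1-31, against 315, 253 and 303 CPM in WT. RPS28B was higher in every ten1-31 library than in any WT library, whereas RPS28A overlapped between genotypes. Neither copy passed the test alone, RPS28A at -0.21 (adjusted p = 0.0743, edgeR) and RPS28B at 0.21 (adjusted p = 0.0895, edgeR). RPS28B was called higher without WT replicate 1 (0.28, adjusted p = 0.0308, edgeR) and with scaling by library size only (0.30, adjusted p = 0.0209, edgeR). The A copy's share was 62.8 ± 0.905% in ten1-31 and 69.4 ± 0.418% in WT (SD, n = 3 each), and the log2 ratio was lower in ten1-31 by 0.43 ± 0.04 (SE; adjusted p = 0.000508, limma). Both copies span 204 bases, so RPS28A was the more abundant copy per length in every library.

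RPS9 was the small subunit pair whose A to B ratio rose most in ten1-31. RPS9A is the minor copy by count and had 145, 139.9 and 149 CPM in ten1-31, against 172, 155 and 171 CPM in WT. Every ten1-31 library lay below every WT library in both copies, with RPS9B changing more. The A share was 11.6, 11.7 and 12.0% in ten1-31, against 9.30, 9.82 and 8.99% in WT, and the log2 ratio was higher in ten1-31 by 0.37 ± 0.05 (SE; adjusted p = 0.000876, limma). RPS9A alone changed by -0.20 with an adjusted p of 0.0485 (edgeR), a call lost without any one of 5 of the 6 libraries.

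For RPS22 and RPS25 the A copy fell and the A share was lower in ten1-31. RPS22A, for a protein of the body, had 580.0, 562 and 573 CPM in ten1-31, against 839, 688 and 786 CPM in WT, whereas RPS22B had 197, 185 and 185 CPM in ten1-31, against 211, 186 and 212 CPM in WT. RPS22A did not overlap between genotypes, and RPS22B did. RPS22A fell by 0.43 ± 0.09 on the log2 scale (SE; adjusted p = 0.00489, edgeR), RPS22B stood at -0.10 (adjusted p = 0.294, edgeR), and the log2 ratio was lower in ten1-31 by 0.33 ± 0.05 (SE; adjusted p = 0.00115, limma).

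RPS25A had 583, 558 and 573 CPM in ten1-31, against 812, 762 and 852 CPM in WT. RPS25B had 388, 367 and 365 CPM in ten1-31, against 470.3, 406 and 487 CPM in WT. Rps25 is known for its part in initiation at internal entry sites of mRNAs. Both copies fell without overlap, RPS25A by 0.50 ± 0.07 (adjusted p = 0.00111) and RPS25B by 0.29 ± 0.09 (SE; adjusted p = 0.0265, edgeR), and the ratio was lower in ten1-31 by 0.22 ± 0.05 (SE; adjusted p = 0.00681, limma). The call for RPS25B was lost without any of 4 libraries, WT replicate 3 and each ten1-31 replicate.

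In 4 of the 22 pairs a copy lies on a chromosome that stood apart. RPS21A, on chromosome XI, had 348, 348 and 358 CPM in ten1-31, against 487, 431 and 504 CPM in WT, and RPS21B had 459.5, 459 and 451 CPM in ten1-31, against 467, 425 and 509 CPM in WT. RPS21A did not overlap and fell by 0.43 ± 0.08 as measured (SE; adjusted p = 0.00314, edgeR), whereas RPS21B stood at -0.03 and overlapped (adjusted p = 0.751, edgeR). The A to B ratio was lower in ten1-31 by 0.40 ± 0.04 as measured (SE; adjusted p = 0.000508, limma) and -0.89 chromosome-centred.

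RPS24B lies on chromosome IX. RPS24A had 678, 652 and 699 CPM in ten1-31, against 893, 751 and 873 CPM in WT, and RPS24B had 574, 509 and 663 CPM in ten1-31, against 529.5, 466 and 544 CPM in WT. RPS24B was highest in ten1-31 replicate 3, the library with the highest chromosome IX median, and overlapped between genotypes. The A to B ratio was lower in ten1-31 by 0.48 ± 0.07 as measured (SE; adjusted p = 0.00139, limma), whereas the chromosome-centred change was 0.01 (adjusted p = 0.849, limma). RPS24A fell by 0.31 ± 0.09 (SE; adjusted p = 0.0195, edgeR), a call lost without ten1-31 replicate 1 or 2 or WT replicate 3.

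RPS4B and RPS27B lie on chromosome VIII. The A share of RPS4 was 39.4, 42.1 and 50.2% in ten1-31 replicates 1, 2 and 3, against 55.8, 55.4 and 55.9% in WT, and the ratio change was -0.68 as measured and -0.28 chromosome-centred (limma, adjusted p = 0.00681 and 7.17e-05 in that order). RPS27 did not differ as measured, with a ratio change of -0.23 (95% interval -0.65 to 0.18; adjusted p = 0.26, limma), and stood at -0.32 chromosome-centred (adjusted p = 6.35e-05, limma). In both pairs the A share was highest of the ten1-31 libraries in replicate 3.

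**Figure D5:**
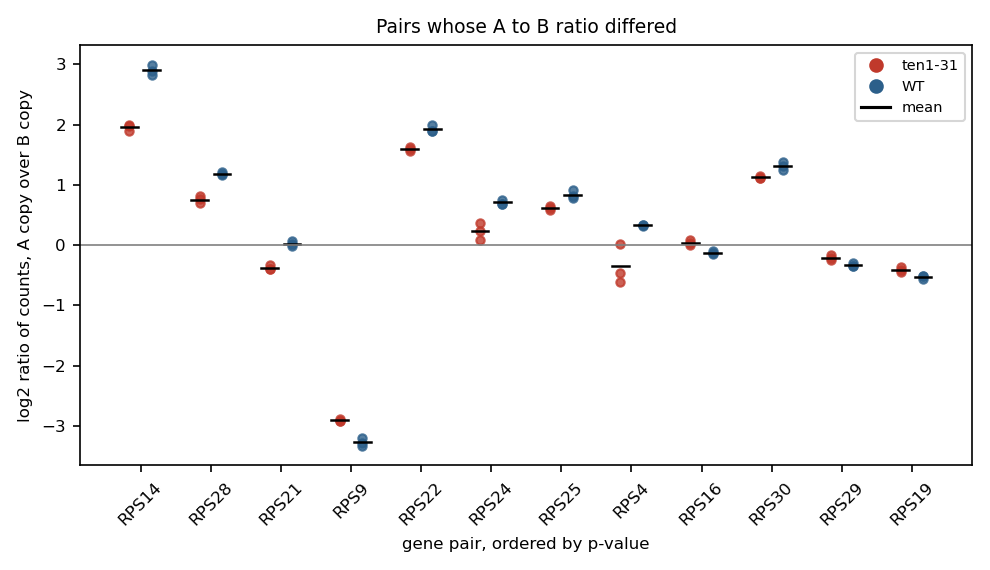
Log2 ratio of A to B counts (vertical axis) in each library for 12 pairs whose ratio differed between genotypes, ordered by p-value, with ten1-31 points left of WT and a bar at each mean. The ten1-31 points of RPS14 lie near 1.95 and the WT points near 2.90; the ten1-31 points of RPS24 and RPS4, each with a copy on chromosome IX or VIII, are the most widely spread.

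Smaller differences were called for RPS16 (ratio change 0.17), RPS30 (-0.19), RPS29 (0.12) and RPS19 (0.12), with limma adjusted p-values from 0.0102 to 0.0368. The RPS29 change was 0.01 chromosome-centred (adjusted p = 0.88, limma). In 9 pairs no difference was called as measured, and the largest absolute change among them was 0.23. For RPS1 the change was -0.05 (95% interval -0.15 to 0.04) as measured and -0.13 chromosome-centred (adjusted p = 0.0195, limma), so it was called under that scaling. As measured, the change was 0.05 for RPS18 (-0.04 to 0.14), 0.04 for RPS6 (-0.08 to 0.15) and -0.02 for RPS0 (-0.12 to 0.09). Each of these intervals lies nearer to 0 than that of RPS14, which ran from -1.08 to -0.81.

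Summed over both copies, the mRNA level of 32 of 33 proteins was below WT, and 26 did not overlap between genotypes. The exception was RPS27, with 105% of WT in ten1-31, whose 2 copies lie on chromosomes VIII and XI. Summed RPS14 had 1213, 1212 and 1189 CPM in ten1-31, against 1656, 1399 and 1579 CPM in WT, or 78.0% of WT; the genotypes did not overlap. Summed RPS28 stood at 95.3% and RPS0 at 87.5% of WT, both with overlap. The lowest sums after ASC1 were RPS3 at 57.9%, RPS12 at 59.2%, RPS31 at 59.9% and RPS1 at 62.0% of WT.

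Large subunit protein genes were also mostly lower. Of 80 with a row, 53 fell and 2 rose (26.2% of all rows fell and 24.3% rose). Their median change was -0.36 on the log2 scale as measured and -0.38 chromosome-centred, where the small subunit members stood at -0.36 and -0.32, and the difference between the sets was not tested. RPL3, for a protein at the peptidyl transferase centre, had 3358, 3182 and 3311 CPM in ten1-31, against 7085, 6468 and 6820.5 CPM in WT, and fell by 1.05 ± 0.07 (SE; adjusted p = 5.45e-05, edgeR). RPL15A and RPL22B fell by 1.02 and 0.96 on the log2 scale. All ten1-31 libraries of these 3 genes lay below all WT libraries.

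Among genes for factors that assemble the small subunit, the median change turned on single WT libraries. Of 24 genes for 40S assembly factors, 6 fell and 1 rose, with a median of -0.00 on the log2 scale (26.2% of all rows fell and 24.3% rose). The median was 0.13 without WT replicate 1 and -0.11 without WT replicate 2. TSR3, which modifies the ribosomal RNA of the small subunit, fell by 0.46 ± 0.08 on the log2 scale (SE; adjusted p = 0.00295, edgeR), and RRP7, an assembly factor of the early particle, fell by 0.40 ± 0.08 (SE; adjusted p = 0.00357, edgeR). FAP7, an assembly factor that binds Rps14, had 35.9, 38.3 and 36.6 CPM in ten1-31, against 48.0, 44.7 and 50.0 CPM in WT, and fell by 0.37 ± 0.07 (SE; adjusted p = 0.00514, edgeR). Of 10 genes with a row in a list of chaperones and modifiers of ribosomal proteins, 3 fell and 1 rose, with a median of -0.11, which was -0.028 without WT replicate 1, -0.23 without WT replicate 2, -0.043 chromosome-centred and -0.023 with library size only. The 3 were FAP7, which is on both lists, TPA1 (-0.42), which hydroxylates Rps23, and BCP1 (-0.39), a chaperone of a large subunit protein. TSR2, TSR4 and YAR1, dedicated chaperones of Rps26, Rps2 and Rps3, stood at -0.12, -0.15 and -0.01 and did not pass the test; these 3 were picked out after their values were seen.

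Of 16 regulators of ribosomal protein genes with a row, 3 fell and 5 rose, with a median of 0.06 (24.3% of all rows rose and 26.2% fell). That median ran from 0.0077 with upper quartile scaling to 0.14 with library size only, and was 0.093 without WT replicate 2, 0.018 without WT replicate 3 and 0.12 chromosome-centred. BCY1, the inhibitory subunit of protein kinase A, had 249, 251 and 286 CPM in ten1-31, against 144, 154 and 143 CPM in WT, and rose by 0.84 ± 0.08 on the log2 scale (SE; adjusted p = 0.000201, edgeR). BCY1 lies on chromosome IX and stood at 0.43 chromosome-centred. TOR2, a TOR kinase on chromosome XI, rose by 0.76 ± 0.08 (SE; adjusted p = 0.000271, edgeR) and stood at 0.33 chromosome-centred. Of the 5 that rose, 4 lie on chromosomes VIII, IX or XI, and 3 of those 4 were also called chromosome-centred. DOT6, a repressor of ribosome synthesis genes, fell by 0.39 ± 0.08 (SE; adjusted p = 0.00503, edgeR). RAP1 and FHL1, which bind ribosomal protein promoters, stood at -0.06 and -0.14 and did not pass the test. HMO1, whose protein was named above with Rap1 and Fhl1, fell by 0.38 ± 0.08 (SE, adjusted p = 0.00632, edgeR). Chromosome-centred, HMO1 stood at -0.29 (adjusted p = 0.0215, edgeR). RAP1, FHL1 and HMO1 were picked out after their values were seen.

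General stress genes ran in the opposite direction. Of 16 with a row, 10 rose and 1 fell, with a median log2 fold change of 0.80 (24.3% of all rows rose and 26.2% fell). HSP26, for a small heat shock chaperone, had 965, 1053 and 1067 CPM in ten1-31, against 119.7, 362 and 282 CPM in WT, and rose by 2.02 ± 0.34 on the log2 scale (SE; adjusted p = 0.0023, edgeR). GSY2, for glycogen synthase, and HSP12, for a membrane-protecting stress protein, rose by 1.01 and 0.86. No ten1-31 library overlapped a WT library in these 3 genes, and WT replicate 1 was the lowest library of each.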

How the data were processed

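RNA was measured in 6 libraries. The authors deposited 1 table of read counts per gene (whole numbers, not normalized), with a column per library. The submitters' processing notes name FastQC, cutadapt, Trimmomatic, TopHat2, Bowtie2 and featureCounts, and builds R64 and sacCer3; versions, settings, strand mode and the treatment of reads matching 2 places are not given in the sources used here. Symbols, positions and gene spans came from the RefSeq table of assembly R64, which matched 5112 of 5143 rows. In all, 4 names stood on 2 rows each and were left unnamed. Replicate libraries all differed by more than sampling noise (chi-square per degree of freedom at least 5.33).

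Counts were tested with edgeR 4.0.16 in R 4.3.3 (quasi-likelihood, TMM scaling, filterByExpr with minimum count 10 and total 15, genotype as the only term). The 5133 rows left were adjusted by Benjamini-Hochberg, threshold 0.05. A to B ratios, log2((A + 0.5)/(B + 0.5)), were tested with limma 3.58.1 over 57 pairs. The chromosome-centred fit subtracts, within each library, the median deviation of each chromosome's rows, and was chosen after seeing the data. Scripts were tested on simulated data.

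Values per library are given for the single-copy genes, the 8 largest falls, every gene called higher, the 8 pairs with the smallest p, and up to 3 genes of each other list. Members and lists were chosen with earlier results of these data known. Alternatives were other scalings, filters and tools (DESeq2 1.42.0, limma-voom), a replicate block and leaving out each library or whole chromosomes. Some results chosen by this rule are not reported here, although the counts over all members include them.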

Additional observations from a re-analysis of the deposited data

How the results depend on the processing

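The number of members called lower was 38 and ran from 27 to 44 when each library was left out in turn, and from 33 (library size only) to 42 (upper quartile) over the scalings; 27 members were called lower in every one of 16 fits. It was 27 at an adjusted p under 0.01. The shares of all rows called under these alternatives are not given here, so the counts describe the members only. The number called higher was 1, and 2 with library size only or without WT replicate 1. The median of the members ran from -0.28 (library size only) to -0.42 (without WT replicate 2). The fit with a replicate block called 37 members lower and 12 pairs different, against 13 without it. Deviations of same-numbered libraries correlated at 0.20, 0.21 and 0.09 between genotypes. Differently numbered libraries correlated lower, from -0.23 to 0.05. Whether libraries with the same number shared a batch was not tested. The main fit had genotype as its only term and did not take the numbers as pairs. Pairs called ran from 10 to 13 over the libraries left out, and the difference in share of counts from -1.15 to -1.52 percentage points, each with an exact permutation p of 0.2, the smallest then possible.

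Among the 24 named members and 7 named pairs counted below, changes of sign were these. RPS15 ran from -0.21 to 0.00285 over the libraries left out, the higher without WT replicate 1. RPS21B ran from -0.098 to 0.032, the higher without WT replicate 3, and stood at 0.046 with library size only, 0.000179 without chromosomes VIII and IX, 0.00983 without VIII, IX and XI, and 0.019 chromosome-centred. RPS24B stood at -0.23 and the RPS24 ratio at 0.010 chromosome-centred. Outside these sets, RPS4B, RPS27B and the RPS0 ratio also changed sign when chromosome-centred, to -0.16, -0.21 and 0.07 in that order. The cause was not tested. Of 427 alternative values for 24 named members, 386 kept direction and call, 26 lost the call, 8 gained it and 7 changed sign. Of 88 for 7 named pairs, 87 kept both. The lowest count of any member in a library was 1508, so counting error was small.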
